A study of Mus musculus with 12 samples.

Results

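The 9 genes described here encode the integrins, selectin ligands and adhesion receptors with which myeloid cells attach to vessel walls and tissue. They are Itgam, Itgax, Itgal, Itgb2, Itga4, Itgb1, Selplg, Cd44 and Icam1. They were taken by symbol from the 54104 Ensembl gene entries of the deposited expression matrix, and each symbol matched 1 entry. All 9 passed the filter of at least 1 FPKM (fragments per kilobase of gene, scaled to the mapped fragments of the library) in at least 3 libraries. Itga4 passed through its spleen libraries alone, since 0 of 6 tumor libraries reached 1 FPKM.

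The study measured bulk RNA from mouse cells that its design text calls monocytic and polymorphonuclear myeloid-derived suppressor cells, immature myeloid cells that accumulate in tumor-bearing animals. The 12 libraries form 4 groups of 3, Ly6C tumor, Ly6C spleen, Ly6G tumor and Ly6G spleen. Ly6C and Ly6G are the surface antigens by which such populations are usually sorted. Strain, age, genotype, tumor model, treatment and sorting gate are not stated in the labels, no group is labelled as treated, and nothing ties a replicate number to an animal, culture or pool. The p-values therefore measure the spread between these libraries, which may be in part technical.

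Summed FPKM lay between 331681 and 449309 per library, and 10379 to 12337 genes reached 1 FPKM. Fragment counts were not recoverable, so the depth is unknown. The labels give no batch. Mitochondrial genes held 3.07% to 7.84% of the summed FPKM in Ly6C tumor, against 1.68% to 2.50% in Ly6C spleen, and 5.41% to 11.9% in Ly6G tumor, against 2.48% to 2.87% in Ly6G spleen. The neutrophil genes S100a8 and S100a9 held 0.330% to 0.598% in Ly6C tumor, against 14.6% to 22.8% in Ly6C spleen, and 1.09% to 2.18% in Ly6G tumor, against 23.3% to 30.5% in Ly6G spleen. Markers of other cells separated the tissues. A list of 20 pan-leukocyte genes summed to 227 to 469 FPKM in Ly6C tumor, against 4552 to 5127 in Ly6C spleen, and to 630 to 1065 in Ly6G tumor, against 6003 to 6038 in Ly6G spleen. Ptprc, which encodes the common leukocyte antigen CD45, fell by 2.88 ± 0.26 on the log2 scale in Ly6C tumor (SE, adjusted p = 8.72e-07) and by 1.72 ± 0.26 in Ly6G tumor (adjusted p = 7.44e-05, limma). Ly6g reached 11.8 to 13.8 FPKM in Ly6C tumor and 131 to 209 in Ly6C spleen, and 31.5 to 54.1 in Ly6G tumor and 591 to 717 in Ly6G spleen. Ly6c2 reached 6.35 to 8.16 FPKM in Ly6C tumor and 5.31 to 7.80 in Ly6G tumor, and 223 to 272 in Ly6C spleen and 170 to 237 in Ly6G spleen, so it did not separate the labels in either tissue. Fibroblast markers summed to 284 to 476 FPKM in Ly6C tumor, against 6.33 to 13.2 in Ly6C spleen, and to 208 to 486 in Ly6G tumor, against 8.40 to 9.16 in Ly6G spleen. Of the 11 fibroblast markers, Dcn, Lum and Pdgfra were at 0 in Ly6C spleen. Epithelial markers summed to 754 to 1021 FPKM in Ly6C tumor, against 0.755 to 1.03 in Ly6C spleen, and to 447 to 755 in Ly6G tumor, against 1.82 to 2.74 in Ly6G spleen. The keratin genes Krt8 and Krt18 made up 99.3% or more of that sum in every tumor library. Epcam, which marks epithelia, was at 0 in Ly6C tumor, against 0.136 to 0.235 FPKM in Ly6C spleen, and at 0.159 at most in Ly6G tumor, against 0.564 to 1.08 in Ly6G spleen. Krt5, Krt14 and Krt19 were at 0 in both spleen groups. Of 14 neutrophil markers, 14 were lower in tumor in each label, and of 10 B cell markers 10. Of 10 erythroid markers 8 were lower and 1 higher in Ly6C tumor, and 9 lower and 0 higher in Ly6G tumor. Of 11 macrophage markers tested, 5 were lower in Ly6C tumor and 7 in Ly6G tumor, with 0 higher. Of 3 megakaryocyte markers tested, 2 were higher in Ly6C tumor and 3 in Ly6G tumor, with 0 lower. These counts stand beside 30.5% of all genes lower and 46.2% higher in Ly6C tumor, and 24.7% and 51.5% in Ly6G tumor. In each tumor group, 1 of 14 neutrophil, 7 of 10 B cell and 4 of 10 erythroid markers stayed under 1 FPKM in every library. All 6 listed megakaryocyte markers did so in Ly6C spleen. Markers that met the filter through 1 tissue had to differ, so these counts are in part set by the filter. The part of these markers and shares in the results below was not tested.

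Integrins are pairs of an alpha and a beta chain. The β2 chain, CD18, is restricted to leukocytes and pairs with αL (LFA-1), αM (Mac-1, also called CD11b/CD18), αX (CD11c/CD18) and αD. The β1 chain is made by most cell types and pairs with many alpha chains, among them α4 (VLA-4), which binds VCAM-1 and fibronectin. On the vessel wall, leukocytes first roll on selectins, which grip the glycoprotein PSGL-1 encoded by Selplg and glycoforms of CD44. They then arrest through β2 integrins, whose counter-receptor on the endothelium is ICAM-1.

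Promoters are shown for Itgb1 and Icam1, whose fitted changes between tumor and spleen were positive in both labels, and for Itgam and Itga4, alpha chains whose fitted changes were negative. Each is 300 bases, from 250 bases before the RefSeq gene start, on the gene's own (plus) strand of GRCm38.p6. Capitals mark matches on either strand to GAGGAA (a core bound by ETS factors such as PU.1), GGGCGG (Sp1), TGANTCA (AP-1) and GGAAATTCC (NF-kappaB).
Itgb1 (chr8:128685404-128685703): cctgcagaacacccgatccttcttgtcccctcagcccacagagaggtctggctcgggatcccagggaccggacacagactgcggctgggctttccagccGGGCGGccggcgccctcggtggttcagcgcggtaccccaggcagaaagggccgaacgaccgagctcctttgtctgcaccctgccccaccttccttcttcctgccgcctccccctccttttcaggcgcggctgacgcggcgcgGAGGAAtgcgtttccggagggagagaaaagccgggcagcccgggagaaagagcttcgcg
Icam1 (chr9:21015690-21015989): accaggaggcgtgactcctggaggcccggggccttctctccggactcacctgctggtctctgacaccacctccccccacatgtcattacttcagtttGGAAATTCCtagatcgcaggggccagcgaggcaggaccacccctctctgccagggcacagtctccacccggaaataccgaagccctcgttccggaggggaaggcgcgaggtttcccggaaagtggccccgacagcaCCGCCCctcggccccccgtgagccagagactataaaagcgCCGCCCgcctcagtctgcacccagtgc
Itgam (chr7:128062390-128062689): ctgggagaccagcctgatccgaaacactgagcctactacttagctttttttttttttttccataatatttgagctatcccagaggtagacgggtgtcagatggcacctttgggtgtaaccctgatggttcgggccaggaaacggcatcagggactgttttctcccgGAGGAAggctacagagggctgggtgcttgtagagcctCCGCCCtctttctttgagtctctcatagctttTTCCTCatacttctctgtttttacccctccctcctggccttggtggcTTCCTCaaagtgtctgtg
Itga4 (chr2:79255176-79255475): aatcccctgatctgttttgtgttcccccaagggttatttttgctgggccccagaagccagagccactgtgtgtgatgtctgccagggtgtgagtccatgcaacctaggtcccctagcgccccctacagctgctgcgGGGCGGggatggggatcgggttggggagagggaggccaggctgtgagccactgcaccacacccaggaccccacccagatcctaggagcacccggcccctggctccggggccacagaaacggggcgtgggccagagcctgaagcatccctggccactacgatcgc
With position 0 at the RefSeq start, the Icam1 window held GGAAATTCC at -153 and GGGCGG at -17 and 23. Among 32851 mouse promoters of this length, 0.317% held GGAAATTCC and 35.7% held GGGCGG. The Itgam window held GAGGAA at -84, -15 and 32, a motif found in 28.3% of promoters, and GGGCGG at -47. Itgb1 had GAGGAA at -9 and GGGCGG at -151, and Itga4 had GGGCGG at -114. None of these 4 windows held TGANTCA (7.81% of promoters). In these windows no 2 matches overlapped. RefSeq windows for Itgax and Cd44 were also searched and are not printed. Itgax had TGANTCA at -56, and Cd44 had GAGGAA at -243 and -220 and GGGCGG at 3. A match describes these letters only.

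On the deposited scale, the β2 integrin genes, Selplg and Cd44 were lower in tumor than in spleen, except Itgam in Ly6G, which did not pass, and Itgb1 was higher. On a scale that holds pan-leukocyte genes level Itgb1 was still higher and no member was lower, and on that scale 90.9% of all genes were higher and 3.59% lower in Ly6C, and 88.4% higher and 4.05% lower in Ly6G. In Ly6C, 1 of the 9 genes passed the test as higher in tumor and 7 as lower, and in Ly6G 2 passed as higher and 6 as lower (limma, Benjamini-Hochberg adjusted p under 0.05 over 13610 genes). Itga4 is in both lower counts although it reached the filter through spleen alone and so had to differ. Of the other 8 members, 6 were lower in Ly6C and 5 in Ly6G. Passing was common among all genes. In Ly6C, 76.7% passed, 46.2% as higher and 30.5% as lower, and in Ly6G 76.2% passed, 51.5% as higher and 24.7% as lower. Of these 8, 1 lay higher and 6 lay lower in Ly6C tumor with no overlap between the tissues, beside 47% and 31.5% of all genes, and in Ly6G 2 lay higher and 5 lower with no overlap, beside 53.2% and 26%. Their median log2 change was -2.19 in Ly6C and -1.16 in Ly6G, beside 0.27 and 0.43 for all genes tested. The 8 members reached 1 FPKM in both tissues, while the shares and medians of all genes also hold genes that entered through 1 tissue. In bulk samples, fewer cells of a type and less RNA per cell cannot be told apart. When each library was rescaled to its pan-leukocyte genes, 4 members were higher and 0 lower in each label, beside the shares of all genes given above. Under that scaling the median of all genes moved to 3.20 in Ly6C and 2.21 in Ly6G. Itgb1, Cd44, Icam1 and Itgax were then higher in tumor and the other 5 did not pass. Relative to the median of all genes, 2 members lay above it and 7, Itga4 among them, below it in both labels, under each of the 5 scalings run. The equal-sum, median-of-ratios and pan-leukocyte scalings divide each library by 1 factor, which moves members and median nearly alike. Agreement among these scalings was therefore built in.

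**Figure D1:**
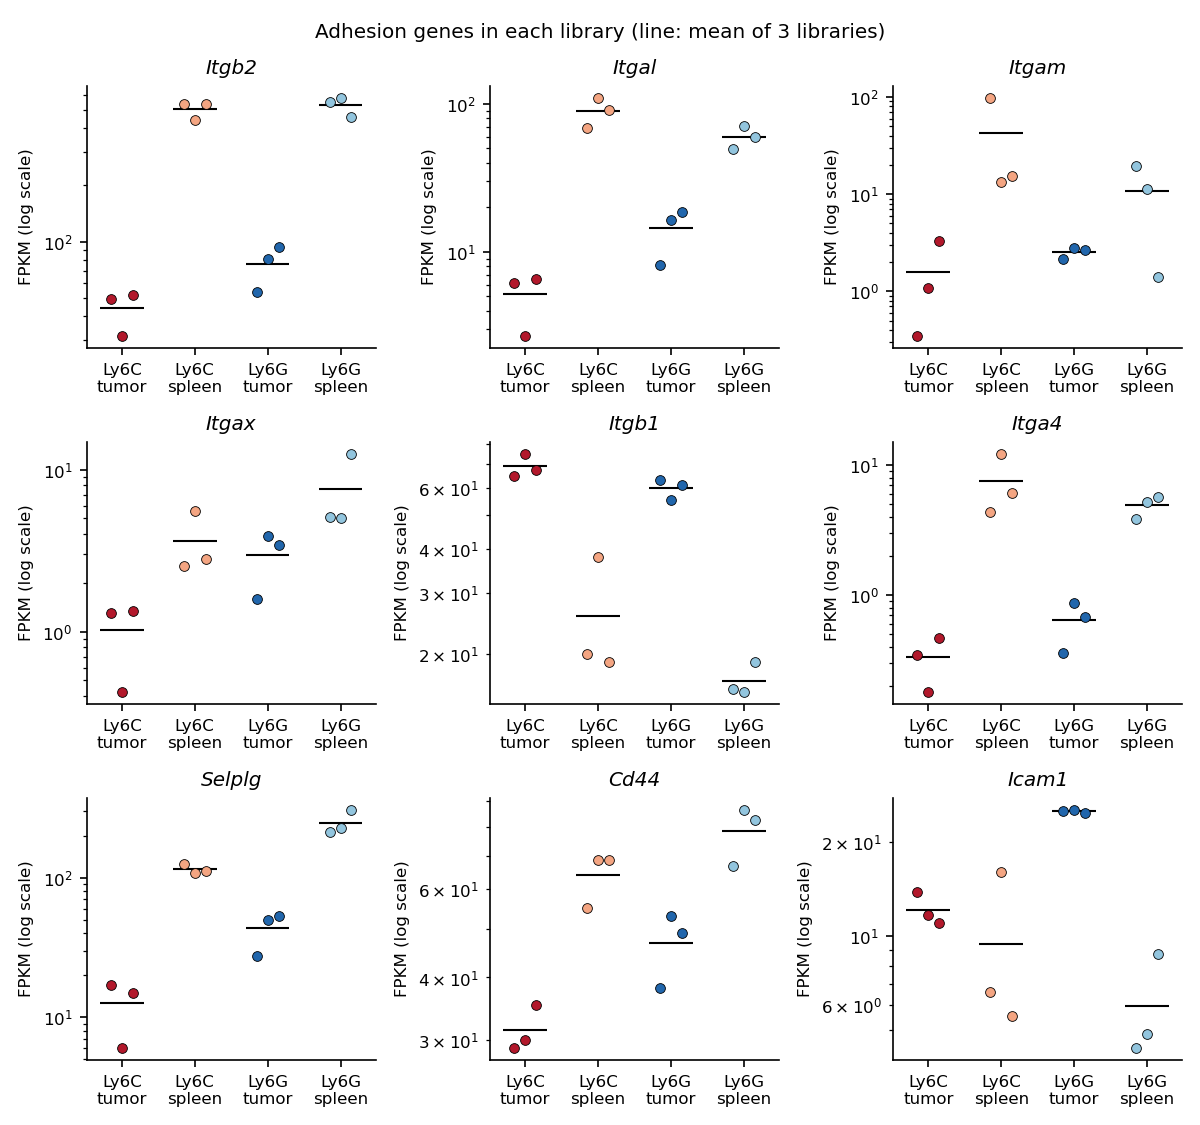
FPKM of each gene in each of the 12 libraries on a logarithmic axis whose range differs between panels, with a point for each library and a line at the mean of the 3 libraries of a group. Itgb2, Itgal, Itga4, Selplg and Cd44 sit lower in tumor than in spleen in both labels with no overlap on this deposited scale (not when rescaled to pan-leukocyte genes), and Itgb1 sits higher.

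Itgb2, the common chain of the leukocyte integrins, was at 49.3, 31.4 and 52.3 FPKM in Ly6C tumor, against 541, 442 and 537 FPKM in Ly6C spleen. In Ly6G tumor it was at 54.3, 81.0 and 94.1 FPKM, against 555, 581 and 458 FPKM in Ly6G spleen. Every tumor library lay below every spleen library of its label. The log2 change was -3.51 ± 0.23 in Ly6C (SE, n = 3 each, adjusted p = 6.22e-08) and -2.81 ± 0.23 in Ly6G (adjusted p = 4.52e-07, limma). Among the members it had the highest mean in both spleen groups, at 506 ± 56.1 FPKM in the 3 Ly6C spleen libraries and at 531 ± 64.7 FPKM in those of Ly6G spleen (SD). After rescaling to pan-leukocyte genes, the change was 0.29 in Ly6C and -0.17 in Ly6G, and neither passed (adjusted p = 0.334 and 0.565).

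Itgal, the alpha chain of LFA-1 that binds ICAM-1, was at 6.18, 2.70 and 6.60 FPKM in Ly6C tumor, against 68.8, 109.8 and 90.7 in Ly6C spleen. In Ly6G tumor it was at 8.15, 16.4 and 18.7 FPKM, against 49.4, 71.3 and 59.7 in Ly6G spleen. Again the tissues did not overlap in either label. The gene fell by 3.93 ± 0.33 on the log2 scale in Ly6C tumor (adjusted p = 4.81e-07) and fell by 2.05 ± 0.33 in Ly6G tumor (adjusted p = 1.28e-04, limma). Rescaled to pan-leukocyte genes, the change was -0.35 in Ly6C and 0.50 in Ly6G (adjusted p = 0.254 and 0.112).

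The alpha M chain, which with β2 forms the complement and fibrinogen receptor Mac-1, could not be read from the Itgam entry alone. Itgam lies on chromosome 7 at 128062640 to 128118491 (GRCm38, plus strand, GENCODE M21). A second protein-coding gene model, Gm49368, lies at 128062683 to 128128160 on the same strand. It shares 3450 exonic bases with Itgam, which is 68.7% of Itgam's exonic length and 71.8% of its own, and it begins inside the Itgam window printed above. The sources used here do not say how the authors divided fragments between such models.

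Itgam was at 0.347, 1.08 and 3.27 FPKM in Ly6C tumor, against 97.9, 13.3 and 15.5 in Ly6C spleen. In Ly6G tumor it was at 2.18, 2.78 and 2.67 FPKM, against 19.6, 11.3 and 1.40 in Ly6G spleen. The Ly6C tissues did not overlap, and the Ly6G tissues did, through Ly6G spleen replicate 3. The log2 change was -3.64 ± 0.83 in Ly6C (adjusted p = 0.00163) and -1.26 ± 0.83 in Ly6G (adjusted p = 0.182, limma). Without Ly6G spleen replicate 3 the Ly6G change was -2.17 (adjusted p = 0.0196), and without Ly6C spleen replicate 1, the library at 97.9 FPKM, the Ly6C change was -2.74 (adjusted p = 0.00614).

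Gm49368 carried most of the signal of the pair. It was at 28.4, 16.2 and 31.4 FPKM in Ly6C tumor, against 178, 203 and 300.5 in Ly6C spleen, and at 43.4, 56.6 and 64.8 in Ly6G tumor, against 178, 240.0 and 161 in Ly6G spleen. Itgam's share of the sum of both entries ran between 0.865% in Ly6G spleen replicate 3 and 35.5% in Ly6C spleen replicate 1. Summed FPKM was 28.7, 17.3 and 34.6 in Ly6C tumor, against 276, 216 and 316 in Ly6C spleen, and 45.6, 59.4 and 67.4 in Ly6G tumor, against 197, 251 and 162 in Ly6G spleen. The sums no longer overlapped between tissues. This sum was chosen after the values were seen. It fell by 3.31 ± 0.26 on the log2 scale in Ly6C tumor (adjusted p = 2.61e-07) and by 1.80 ± 0.26 in Ly6G tumor (adjusted p = 5.10e-05, limma). The Itgam entry alone had passed in Ly6C and not in Ly6G.

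**Figure D2:**
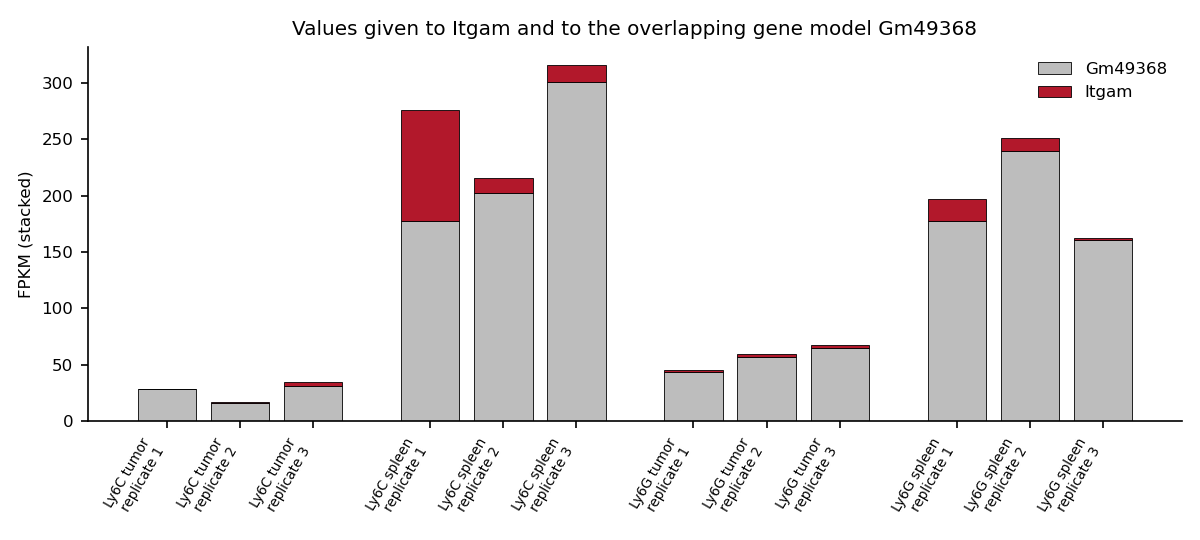
Stacked bars of FPKM for Gm49368 (grey) and Itgam (red) in each of the 12 libraries, on a linear axis from 0. Gm49368 holds most of each bar, and Itgam's share is largest, 35.5%, in Ly6C spleen replicate 1.

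Itgax, the CD11c chain, was low in every group. It was at 1.30, 0.423 and 1.35 FPKM in Ly6C tumor, against 2.54, 5.58 and 2.79 in Ly6C spleen, and at 1.59, 3.91 and 3.42 in Ly6G tumor, against 5.11, 5.04 and 12.5 in Ly6G spleen. The tissues did not overlap within a label. Its log2 change was -1.17 ± 0.37 in Ly6C (adjusted p = 0.0117) and -1.05 ± 0.37 in Ly6G (adjusted p = 0.0210, limma). The Ly6C call was lost without Ly6C spleen replicate 2 (-0.89, adjusted p = 0.0533) or Ly6C tumor replicate 2 (-0.94, adjusted p = 0.0534). The Ly6G call was lost without Ly6G spleen replicate 3 (-0.67, adjusted p = 0.0951) or Ly6G tumor replicate 1 (-0.77, adjusted p = 0.0949), with no filter on low values (adjusted p = 0.0509) and on the equal sum of FPKM (-0.77, adjusted p = 0.0721). The Gm49368 model ends on the chromosome shortly before Itgax begins at 128129547, and the annotation shows no exonic overlap between Itgax and another gene. On the pan-leukocyte scale, Itgax was higher in tumor, by 1.29 in Ly6C (adjusted p = 0.00105) and 1.02 in Ly6G (adjusted p = 0.00763).

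Itgad, the αD chain and no member, reached 0.0121 FPKM at most in Ly6C tumor, against 3.99 to 7.40 in Ly6C spleen, and 0.0146 at most in Ly6G tumor, against 5.86 to 17.9 in Ly6G spleen. Summed over Itgal, Itgam, Gm49368, Itgax and Itgad, the β2-partner alpha chains came to 65.0% to 81.4% of the Itgb2 FPKM in Ly6C tumor and 65.6% to 77.0% in Ly6C spleen. In Ly6G tumor they came to 95.2% to 102% of Itgb2, against 47.9% to 57.4% in Ly6G spleen. The ranges overlapped between tissues in Ly6C and did not in Ly6G, a description for which no test was run.

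Itgb1, the shared chain of the matrix-binding integrins, ran the other way. It was at 64.9, 75.1 and 67.6 FPKM in Ly6C tumor, against 20.04, 38.1 and 19.0 in Ly6C spleen, and at 63.4, 55.3 and 61.1 in Ly6G tumor, against 15.9, 15.6 and 19.0 in Ly6G spleen. Each tumor library lay above each spleen library. The log2 change was 1.46 ± 0.21 in Ly6C (adjusted p = 5.88e-05) and 1.78 ± 0.21 in Ly6G (adjusted p = 1.21e-05, limma). It rose in both labels in each of the 26 alternative fits, between 1.14 and 5.16 in Ly6C and between 1.25 and 4.25 in Ly6G. The fibroblast and epithelial sums given above moved with it.

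Itga4, whose product pairs with β1 to form VLA-4, was low in tumor. It was at 0.344, 0.179 and 0.471 FPKM in Ly6C tumor, against 4.38, 12.2 and 6.11 in Ly6C spleen, and at 0.360, 0.877 and 0.677 in Ly6G tumor, against 3.87, 5.19 and 5.71 in Ly6G spleen. No tumor library reached a spleen library. Because the gene entered the fit through its spleen libraries alone, its tissue change is given as a value with no test. It was -2.59 ± 0.27 (SE) on the log2(FPKM + 1) scale in Ly6C and -1.86 ± 0.27 in Ly6G, a scale that understates changes of genes this low. With a pseudocount of 0.1 in place of 1, the change was -4.08 in Ly6C and -2.82 in Ly6G. Rescaled to pan-leukocyte genes it was -0.44 in Ly6C and -0.22 in Ly6G. Cerkl, on the opposite strand, shares 1124 exonic bases with Itga4 and reached 0.148 FPKM at most, and strand use in the counting is not stated.

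The alpha chains that can pair with β1 differed in their proportions. Over 12 such chains the summed FPKM was 101 to 109 in Ly6C tumor, against 18.0 to 42.9 in Ly6C spleen, and 99.1 to 119 in Ly6G tumor, against 11.2 to 18.0 in Ly6G spleen. Itga4 made up 0.165% to 0.448% of that sum in Ly6C tumor, against 23.6% to 34.0% in Ly6C spleen, and 0.302% to 0.885% in Ly6G tumor, against 31.8% to 37.3% in Ly6G spleen. Itga3, the α3 chain of a laminin receptor typical of epithelia, made up 45.0% to 48.2% in Ly6C tumor, against 0% to 0.487% in Ly6C spleen, and 41.5% to 46.2% in Ly6G tumor, against 0.659% to 1.34% in Ly6G spleen. Itga5, the fibronectin receptor chain, was a large part in every group, at 29.7% to 32.5% in Ly6C tumor, 44.0% to 54.9% in Ly6C spleen, 27.9% to 35.7% in Ly6G tumor and 35.2% to 43.8% in Ly6G spleen. These shares lie within a library and do not depend on its scaling.

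**Figure D3:**
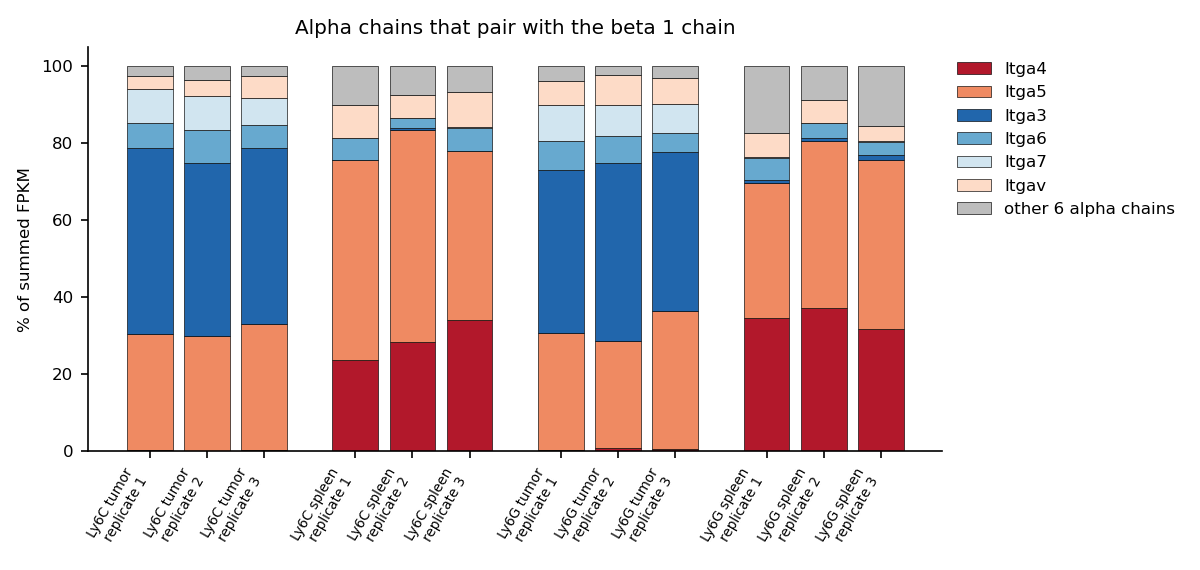
Percent of the summed FPKM of 12 alpha chains that can pair with β1, for each of the 12 libraries, with 6 chains in colour and the other 6 together in grey. Itga4 and Itga5 make up most of each spleen bar, and Itga3 and Itga5 most of each tumor bar.

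Selplg encodes PSGL-1, the main leukocyte ligand of P-selectin. It was at 17.1, 6.01 and 14.8 FPKM in Ly6C tumor, against 125, 108 and 112 in Ly6C spleen, and at 27.5, 50.1 and 53.6 in Ly6G tumor, against 215, 226 and 307 in Ly6G spleen. All 4 groups were apart from each other, with Ly6G spleen highest, then Ly6C spleen, Ly6G tumor and Ly6C tumor. The gene fell by 3.20 ± 0.34 on the log2 scale in Ly6C tumor (adjusted p = 3.42e-06) and fell by 2.52 ± 0.34 in Ly6G tumor (adjusted p = 2.76e-05, limma). With the pan-leukocyte genes held level, the change was 0.51 in Ly6C and 0.10 in Ly6G (adjusted p = 0.102 and 0.750).

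Cd44, the hyaluronan receptor, which many cell types make, differed less between the tissues. It was at 28.9, 30.0 and 35.2 FPKM in Ly6C tumor, against 55.2, 68.6 and 68.7 in Ly6C spleen, and at 38.1, 53.2 and 49.2 in Ly6G tumor, against 66.9, 86.6 and 82.5 in Ly6G spleen. Tissues did not overlap within a label. The log2 change was -1.01 ± 0.16 in Ly6C (adjusted p = 1.02e-04) and -0.74 ± 0.16 in Ly6G (adjusted p = 0.00108, limma). Rescaled to pan-leukocyte genes, Cd44 was higher in tumor, by 2.75 in Ly6C (adjusted p = 5.08e-09) and 1.86 in Ly6G (adjusted p = 4.92e-06), which lay below the median shift of all genes.

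Icam1, whose product is bound by LFA-1 and Mac-1, was at 13.8, 11.6 and 10.95 FPKM in Ly6C tumor, against 6.62, 16.0 and 5.53 in Ly6C spleen. In Ly6G tumor it was at 25.0, 25.2 and 24.6 FPKM, against 4.37, 4.84 and 8.73 in Ly6G spleen. The Ly6G tissues did not overlap, while in Ly6C one spleen library, replicate 2, lay above the tumor libraries. The log2 change was 0.47 ± 0.31 in Ly6C (95% interval -0.22 to 1.15, adjusted p = 0.194) and 1.95 ± 0.31 in Ly6G (adjusted p = 1.32e-04, limma). Without Ly6C spleen replicate 2 the Ly6C change was 0.89 and passed (adjusted p = 0.00359). That library also had the highest Itgb1 and Itga4 of its group and a monocyte marker sum of 1178 FPKM, against 684 and 554 in the other 2. The part of the monocyte markers was not tested. A list of 11 genes induced by cell dissociation and stress was read beside Icam1. It summed to 2805 to 3333 FPKM in Ly6C tumor, against 2047 to 2913 in Ly6C spleen, and to 4313 to 4875 in Ly6G tumor, against 1983 to 3460 in Ly6G spleen. The sums overlapped between the tissues in Ly6C and did not in Ly6G. In Ly6G tumor 9 of these 11 genes were higher and 1 lower, beside 51.5% and 24.7% of all genes. In Ly6C tumor 3 were higher and 2 lower, beside 46.2% and 30.5% of all genes. The part of this list in the Icam1 values was not tested. Endothelial markers, of cells that make ICAM-1, summed to 4.997 to 7.09 FPKM in Ly6C tumor, 3.49 to 4.13 in Ly6C spleen, 6.31 to 25.8 in Ly6G tumor and 4.39 to 6.67 in Ly6G spleen. Gm47079, an antisense gene sharing 511 exonic bases with Icam1, reached 0.575 FPKM at most.

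**Figure D4:**
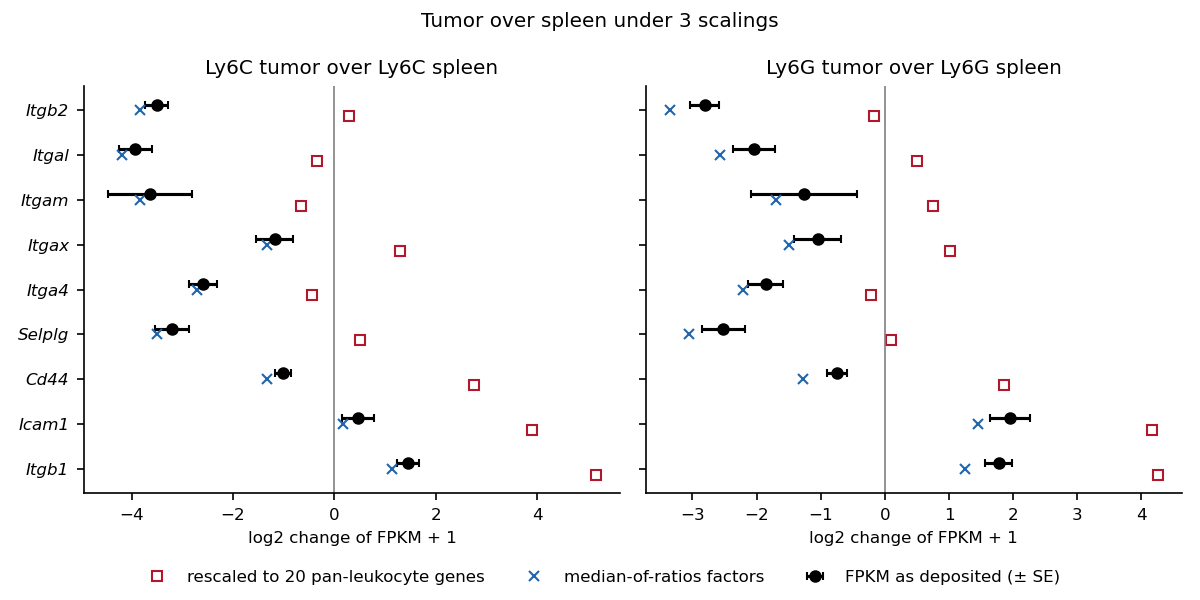
Log2 change of FPKM + 1, tumor over spleen, for each gene in Ly6C (left) and Ly6G (right), as deposited with its standard error (black), with median-of-ratios factors (blue crosses) and rescaled to 20 pan-leukocyte genes (open red squares). The order of the genes is similar under the 3 scalings, and the zero line falls at a different place among them. Both rescalings divide each library by 1 factor, which moves all genes nearly alike, so a similar order is built in.

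Ratios of 2 genes within a library do not depend on its scaling where both values lie far above the amount added. A set of 5, each formed as (FPKM + 0.1) over (FPKM + 0.1), was compared over both factors, 10 tests in all. For low values, such as Itga4 at 0.179 to 0.877 FPKM in tumor, the 0.1 added changes the ratio, which then depends on the scaling. The ratio of Itgb1 to Itgb2 was 1.31, 2.38 and 1.29 in Ly6C tumor, against 0.0372, 0.0866 and 0.0356 in Ly6C spleen, and 1.17, 0.683 and 0.650 in Ly6G tumor, against 0.0288, 0.0270 and 0.0417 in Ly6G spleen. The ratio lay between 0.650 and 2.38 in the tumor libraries, and in the spleen libraries the β2 transcript was far more abundant. The mean difference was 4.84 on the log2 scale, higher in 6 of 6 tumor libraries (exact permutation test, two-sided, p = 0.005, the smallest it can give, adjusted p = 0.0167). Cd44 over Selplg was 1.69, 4.93 and 2.36 in Ly6C tumor, against 0.441, 0.637 and 0.613 in Ly6C spleen, and 1.38, 1.06 and 0.917 in Ly6G tumor, against 0.312, 0.383 and 0.269 in Ly6G spleen. Every tumor library exceeded every spleen library. This ratio differed by 2.04 (exact permutation test, two-sided, p = 0.005, adjusted p = 0.0167).

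The other ratios did not pass between tissues in the exact permutation test. Itga4 over Itgal differed by -0.30 on the log2 scale (adjusted p = 0.257), Itgax over Itgam by 1.42 (adjusted p = 0.281) and Itgam over Itgb2 by 0.23 (adjusted p = 0.82). The Itga4 value averages unlike labels. Its mean log2 ratio was -3.57 in Ly6C tumor against -3.66 in Ly6C spleen, and -4.28 in Ly6G tumor against -3.59 in Ly6G spleen. In Ly6G the ratio was 0.0412 to 0.0591 in tumor, against 0.0741 to 0.0972 in spleen, without overlap. Itga4 reached the filter through spleen alone, so no conclusion is drawn from its test. A ratio with Itgam carries the split with Gm49368. With Gm49368 added to Itgam, the sum over Itgb2 differed by 0.59 (adjusted p = 0.0375), and the Itgax ratio by 1.06 (adjusted p = 0.0833). The value of 0.59 also averages unlike labels. In limma the sum changed by -3.31 in Ly6C and -1.80 in Ly6G, and Itgb2 by -3.51 and -2.81. Without Ly6G spleen replicate 3, in which Itgam was 1.40 and Itgax 12.5 FPKM, the Itgax ratio to Itgam differed by 2.19 (adjusted p = 0.0167).

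**Figure D5:**
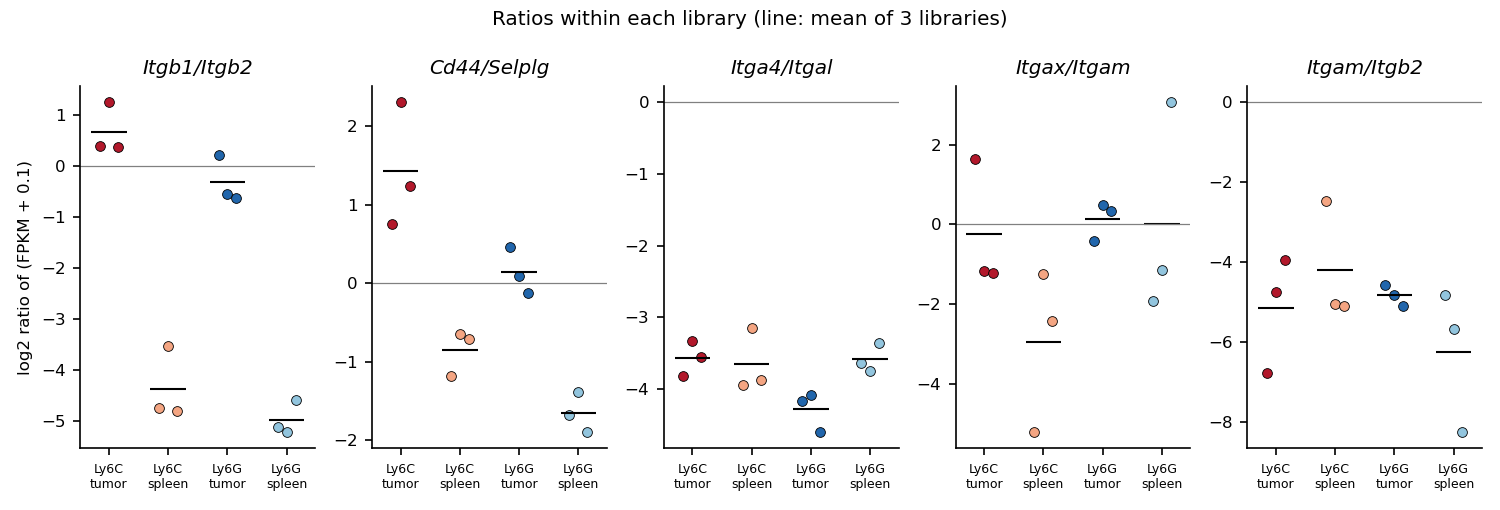
Log2 ratio of (FPKM + 0.1) for 5 gene pairs in each of the 12 libraries, with a line at the mean of the 3 libraries of a group and a grey line at equal amounts. Itgb1/Itgb2 and Cd44/Selplg are higher in every tumor library than in every spleen library, and the other 3 ratios overlap.

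Between the labels in spleen, 1 of the 9 members passed. Selplg was lower in Ly6C spleen than in Ly6G spleen, by 1.09 ± 0.34 on the log2 scale (adjusted p = 0.0293, limma). That made 1 of 9 lower and 0 higher, beside 8.59% of all genes lower, 22.1% higher and 30.6% in either direction. Without overlap, 1 member (Itgb1) lay higher and 1 (Selplg) lower, beside 29% and 13% of all genes. At an unadjusted p under 0.05, 1 member was higher and 2 lower in limma, beside 28.9% and 12.1% of all genes. The Selplg call was lost without any of Ly6C spleen replicates 1, 2 and 3 or Ly6G spleen replicates 2 and 3, at changes of -1.15 to -0.93 and adjusted p of 0.0529 to 0.0954. Itgb1 lay higher in Ly6C spleen in all 3 libraries than in the 3 Ly6G spleen libraries, with a change of 0.52 ± 0.21 (adjusted p = 0.0895, limma), and passed without Ly6C spleen replicate 3 (0.69, adjusted p = 0.0358). Its separation was nearly a tie, with 19.036 FPKM in Ly6C spleen replicate 3 and 19.025 in Ly6G spleen replicate 3. Itgb2 differed by -0.07 in limma, with a 95% interval of -0.57 to 0.44. Monocyte markers separated the labels in spleen, with sums of 554 to 1178 FPKM in Ly6C spleen and 419 to 428 in Ly6G spleen, and so did B cell markers, at 258 to 400 FPKM in Ly6C spleen and 760 to 1323 in Ly6G spleen. Their part was not tested.

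In tumor, 4 members passed as lower in Ly6C than in Ly6G and 0 as higher, beside 8.7% of all genes lower, 5.8% higher and 14.5% in either direction. At an unadjusted p under 0.05, 6 were lower and 0 higher (limma), beside 15% and 16.9% of all genes. Without overlap, 1 member (Itgb1) lay higher and 6 lay lower in Ly6C tumor, beside 24.1% and 18.2% of all genes. The log2 change of Selplg was -1.77 ± 0.34 (adjusted p = 0.00805), and that of Itgal -1.32 ± 0.33 (adjusted p = 0.0248). For Itgb2 it was -0.77 ± 0.23 (adjusted p = 0.0463) and for Cd44 -0.55 ± 0.16 (adjusted p = 0.0398, limma). Selplg passed without any 1 library, between -2.07 and -1.35. Itgb2 lost its call in 9 of 12 such fits, all but those without Ly6C spleen replicate 2, Ly6G spleen replicate 3 or Ly6G tumor replicate 1. Cd44 lost it without any Ly6C tumor library, Ly6G tumor replicate 2 or Ly6G tumor replicate 3, and Itgal without Ly6C tumor replicate 2, Ly6G tumor replicate 2 or Ly6G tumor replicate 3. Without both libraries of the highest mitochondrial share, replicate 3 of each tumor group, none of the 4 passed. In that fit 1.84% of all genes were lower and 0.0661% higher. Fitted on the 2 tumor groups alone, Itgb2 (adjusted p = 0.0975) and Itgal (adjusted p = 0.0656) did not pass and Icam1 did (adjusted p = 0.0133), and Itgb2 also missed the threshold with median-of-ratios factors (adjusted p = 0.0605). The counts fell to 1 without Ly6C tumor replicate 2, Ly6G tumor replicate 2 or Ly6G tumor replicate 3, beside 4.64% to 5.17% of all genes lower. They fell to 2 without Ly6C tumor replicate 1 or Ly6C tumor replicate 3, beside 5.66% and 4.93%. Icam1 did not overlap between the tumor groups, as its values above show, and had a log2 change of -0.99 ± 0.31 (adjusted p = 0.0553, limma), which passed when Ly6C spleen replicate 2, Ly6C spleen replicate 3 or Ly6G spleen replicate 3 was left out of the shared spread (adjusted p of 0.00985 to 0.0410). The sum of Itgam and Gm49368 was lower in Ly6C tumor than in Ly6G tumor, at -1.10 ± 0.26 (adjusted p = 0.0199, limma), where the Itgam entry alone did not pass. In tumor the pan-leukocyte genes moved the same way, 15 of 20 of them lower in Ly6C. Rescaled to them, 1 member was higher, Itgb1 at 1.40 (adjusted p = 0.00213), and 1 lower, Selplg at -0.66 (adjusted p = 0.0452), beside 74.7% of all genes higher and 0.948% lower, and the median of all genes moved to 1.12.

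Within libraries, Cd44 over Selplg was higher in Ly6C than in Ly6G in both tissues, by 1.05 on the log2 scale (exact permutation test, two-sided, p = 0.005, adjusted p = 0.0167), and in each tissue all 3 Ly6C libraries exceeded all 3 Ly6G libraries. The Itgb1 to Itgb2 ratio was higher in Ly6C by 0.80 and missed the threshold after adjustment (exact permutation test, p = 0.03, adjusted p = 0.075). It passed without Ly6G spleen replicate 3 (0.89, adjusted p = 0.04) and without Ly6G tumor replicate 1 (0.93, adjusted p = 0.0375).

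The tissue difference itself differed between the labels for 2 of 9 members, both lower in Ly6C, beside 15.8% of all genes lower, 6.02% higher and 21.8% in either direction. The Itgal change was -3.93 in Ly6C and -2.05 in Ly6G, and the difference was -1.88 ± 0.47 (adjusted p = 0.0154, limma interaction). For Icam1 the changes were 0.47 in Ly6C and 1.95 in Ly6G, and the difference was -1.48 ± 0.44 (adjusted p = 0.0346), a call lost in 8 of 12 fits without 1 library. The sum of Itgam and Gm49368 gave -1.51 ± 0.37 (adjusted p = 0.0139), the Itgam entry alone -2.38 ± 1.17 (adjusted p = 0.168). Rescaled to pan-leukocyte genes, of which 9 of 20 were themselves lower in this contrast, Itgal gave -0.85 (adjusted p = 0.105) and Icam1 -0.26 (adjusted p = 0.683).

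Genes that work with these adhesion molecules were read from 7 lists. Tissue counts are over the genes that reached 1 FPKM in at least 1 library of each tissue, since a gene that entered the fit through 1 tissue had to differ. Itga3, Itgad, Podxl, Spn, Fut7, Parva and Mmp14 are such genes, and their tissue changes are given as values. Cd99l2, Hyal2, Itga2b, Itgb3, Pik3cg, Rap1a and Rasgrp2 are counted, although they reached 1 FPKM in only 1 or 2 libraries of 1 tissue. They met the filter of 3 libraries through the other tissue, so the tissue counts keep part of this bias. Of all genes tested, 46.2% were higher and 30.5% lower in Ly6C tumor, and 51.5% higher and 24.7% lower in Ly6G tumor. Each tissue count of a list is to be read beside these shares, which also hold genes that entered through 1 tissue. Between tissues, the list of integrin activation and linkage genes had 21 of 25 lower in Ly6C tumor and 19 of 25 in Ly6G tumor, with 2 and 3 higher. Its median log2 change over these 25 was -2.11 in Ly6C and -1.49 in Ly6G, beside 0.27 and 0.43 for all genes tested. Of the parvins, which link integrins to actin, Parvg and Parva were the genes with the largest fall and the largest rise in this list. Parvg, the leukocyte form, was at 1.98, 0.942 and 1.92 FPKM in Ly6C tumor, against 122, 83.8 and 106 in Ly6C spleen, and fell by 5.34 ± 0.24 on the log2 scale (adjusted p = 3.12e-09, limma). Parva, the widely expressed form, was at 10.7, 10.3 and 10.3 FPKM in Ly6C tumor and listed at 0 in all 3 Ly6C spleen libraries. It was at 8.23, 8.18 and 7.69 FPKM in Ly6G tumor, against 0.00475 FPKM at most in Ly6G spleen. In Ly6G tumor, Parvg fell by 4.60 ± 0.24 (adjusted p = 1.23e-08, limma).

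Of the other integrin subunits, 7 of 20 reached 1 FPKM in both tissues, and 5 were higher and 1 lower in Ly6C tumor, with 6 higher and 1 lower in Ly6G tumor. The change of Itga3 was 5.53 ± 0.11 in Ly6C and 5.39 ± 0.11 in Ly6G, and that of Itgad -2.77 ± 0.31 in Ly6C and -3.63 ± 0.31 in Ly6G. Among selectins and their scaffolds, Spn, the leukocyte sialomucin CD43, had a change of -4.70 ± 0.16 in Ly6C and -3.58 ± 0.16 in Ly6G, and Podxl, a sialomucin of epithelia and endothelium, 2.53 ± 0.16 and 2.61 ± 0.16. Of the 4 genes of that list seen in both tissues, 0 were higher and 3 lower in Ly6C tumor, and 1 was higher and 2 lower in Ly6G tumor.

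Of the 10 enzymes that glycosylate and sulfate selectin ligands and were seen in both tissues, 2 were higher and 5 lower in tumor in each label. Fut7, the fucosyltransferase that completes the selectin-binding glycan on PSGL-1, was at 0.189, 0.0786 and 0.284 FPKM in Ly6C tumor, against 7.68, 4.93 and 6.98 in Ly6C spleen, and at 0.275, 0.611 and 0.340 in Ly6G tumor, against 3.48, 4.76 and 3.21 in Ly6G spleen. Like Selplg, it did not overlap between tissues. Its log2 change was -2.65 ± 0.17 in Ly6C and -1.77 ± 0.17 in Ly6G. Tpst1, which sulfates tyrosines of PSGL-1, was higher, by 1.47 ± 0.20 in Ly6C tumor and 1.24 ± 0.20 in Ly6G tumor.

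Of the integrin ligands, 8 of 16 were seen in both tissues, with 3 higher and 3 lower in Ly6C tumor and 3 higher and 4 lower in Ly6G tumor. Spp1, osteopontin, rose by 7.21 ± 0.18 in Ly6C tumor and 7.09 ± 0.18 in Ly6G tumor. C3, whose fragment iC3b binds Mac-1, was lower in Ly6C tumor (-2.11 ± 0.18), and Vcam1, the ligand of VLA-4, in Ly6G tumor (-2.25 ± 0.26). Of the CD44, hyaluronan and ERM genes, 9 of 16 were seen in both tissues, with 3 higher and 3 lower in Ly6C tumor and 5 higher and 2 lower in Ly6G tumor. Hyal2, a hyaluronidase that met the filter through tumor, changed by 1.64 ± 0.25 in Ly6C and 1.78 ± 0.25 in Ly6G, given as values. Cemip2, a cell surface hyaluronidase, was lower in Ly6C tumor (-1.73 ± 0.15), and Msn, moesin, which ties CD44 and PSGL-1 to actin, was lower in Ly6G tumor (-1.09 ± 0.12). Of 8 such transmigration and shedding genes, 2 were higher and 6 lower in Ly6C tumor and 2 higher and 5 lower in Ly6G tumor. Mmp14, the membrane protease that cuts CD44, had a change of 5.65 ± 0.14 in Ly6C and 5.68 ± 0.14 in Ly6G, and Mmp9, a neutrophil granule protease, changed by -4.07 ± 0.37 and -2.94 ± 0.37 (limma).

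Between the labels in spleen, genes of 6 lists passed, beside 22.1% of all genes higher and 8.59% lower. The integrin activation list had 6 of 28 genes higher and 1 lower in Ly6C spleen, the CD44 list 5 and 1 of 11, the glycosylation list 4 and 2 of 12, the ligands 4 and 2 of 9, the other subunits 3 and 1 of 12 and the selectin scaffolds 2 and 1 of 7. Of the 9 transmigration genes, 0 passed (limma, with 1 higher and 0 lower at an unadjusted p under 0.05). Fn1, fibronectin, a ligand of VLA-4 that is also on the monocyte marker list, was at 131, 226 and 81.9 FPKM in Ly6C spleen, against 4.79, 3.45 and 3.26 in Ly6G spleen, a change of 4.82 ± 0.59 (adjusted p = 2.54e-04). Vcan, the matrix proteoglycan versican, was higher by 3.14 ± 0.43 (adjusted p = 4.50e-04) and Itgb7, partner of α4 in gut homing, by 1.84 ± 0.33 (adjusted p = 0.00202). Rap1b, a small GTPase that activates integrins, was higher by 1.06 ± 0.32, Spn by 1.01 ± 0.16 and Tpst2, a second tyrosine sulfotransferase, by 0.87 ± 0.20. Lower in Ly6C spleen were Srgn, the granule proteoglycan serglycin (-1.57 ± 0.27), Vcam1 (-1.41 ± 0.26), Cd24a, a P-selectin ligand (-0.74 ± 0.21), the adaptor Skap2 (-0.63 ± 0.12) and Itga2b, the platelet αIIb chain (-0.35 ± 0.10, limma). The sialyltransferase St3gal6, also in the lower count, reached 1 FPKM in the Ly6G libraries alone. It therefore had to differ between the labels, and its change is given as a value (-1.29 ± 0.11).

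In tumor, 9 of 28 integrin activation genes were lower in Ly6C than in Ly6G and 1 higher, beside 8.7% and 5.8% of all genes. The selectin scaffolds had 4 of 7 lower, the transmigration genes 3 of 9, the other subunits and the CD44 list 2 each and the glycosylation list 1, with 0 higher in each. Of the 9 ligands 0 passed (limma, with 2 higher and 0 lower at an unadjusted p under 0.05). Cd24a changed by -1.83 ± 0.21 (adjusted p = 0.00103), Srgn by -1.72 ± 0.27 (adjusted p = 0.00339), Mmp9 by -1.70 ± 0.37 (adjusted p = 0.0149) and Syk, the kinase that signals from engaged β2 integrins, by -1.70 ± 0.25 (adjusted p = 0.00260). Itgav, the αV chain, was lower by a change of -0.57 ± 0.16, and Parva was the gene higher in Ly6C tumor, at 0.34 ± 0.08 (adjusted p = 0.0231, limma). St3gal6, the 1 glycosylation gene counted, entered the fit through Ly6G alone and had to differ. Its change, given as a value, was -0.94 ± 0.11.

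By likeness over the 12 libraries, measured as the root mean square difference of centred log2(FPKM + 1), the nearest genes to each member were described without a test. Itgb2 was nearest to Prkcb (0.16) and Scamp1 (0.18), Itgal to Bin2 (0.16) and Dock2 (0.23), and Itga4 to Mbp (0.21) and Ccdc69 (0.23). Itgb1 was nearest to Rrp12 (0.12) and Nol9 (0.13), Cd44 to Klhl24 (0.13) and Sat1 (0.13), and Selplg to Fcer1g (0.25) and Mrgpra2b (0.26). Icam1 was nearest to Flcn (0.22) and Nlrc5 (0.27), and Itgax to Fxyd5 (0.22) and Ppp1r16b (0.25). Itgam had no neighbor as near, with Tbc1d8 and Crispld2 both at 0.91. Dock2 is also on the pan-leukocyte list.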

How the data were processed

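Per the labels' protocols, paired-end libraries were made from column-purified RNA. Build GRCm38, featureCounts 1.5.0-p3 and HISAT2 2.0.5 are listed, without roles, in the submitters' processing notes. The authors deposited FPKM per gene and library. The sources used here do not give the program that made these values, its annotation release, strand use or filters. Values of unnamed assembled loci (570 of 54674 entries, 0.463% to 1.04% of a library's FPKM) were left out. Low values times gene length lay within 0.05 of a whole step in 24.4% to 27.8% of cases, so fragment counts and depth were not recovered and no count test was run.

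The 13610 genes that reached 1 FPKM in 3 or more of the 12 libraries were kept. On log2(FPKM + 1), limma 3.58.1 (R 4.3.3) fitted 4 group means with a variance trend (8 residual and 3.4 prior degrees of freedom), two-sided, passing at a Benjamini-Hochberg adjusted p under 0.05 over all genes. Ratios of (FPKM + 0.1) were compared with exact permutation tests within strata (400 permutations), adjusted over 10 tests. Gene positions came from GENCODE M21 and promoters from RefSeq (GRCm38.p6), which matched 6 of 9 members. Itgal, Itgb2 and Selplg are named only. Tables were made with Python 3.11.15 and pandas 2.3.3.

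The members, related lists and marker lists were chosen with earlier results of these data known. Named genes were the 9 members, the passing gene with the largest rise and fall of each related list in 4 comparisons, and the 2 genes nearest to each member. Itgad, Gm49368, Ptprc, the Ly6 genes and shares of Itga5 were added for reference. Deviations of same-numbered libraries from their group means correlated between -0.36 and 0.28 (median 0.02, 5 of 18 pairs over 0.1). The highest were replicate 3 of both tumor groups (0.279) and replicate 1 of both spleen groups (0.263), so some pairs may share a source. Numbers were not used as a block in the main fit, and a fit with that block is among the alternatives. Alternatives were other pseudocounts, filters, scalings, variance models and sample sets.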

Additional observations from a re-analysis of the deposited data

Results flagged for a closer look

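Of the results for the 9 genes, 2 were marked because the tumor against spleen change differed between the labels by a test of the difference itself. For Itgal, the change was -3.93 in Ly6C and -2.05 in Ly6G on the log2 scale, a difference of -1.88 (95% interval -2.90 to -0.86, limma adjusted p = 0.0154). It passed without any 1 library, between -2.22 and -1.55, and was not past the threshold after rescaling to pan-leukocyte genes (-0.85, adjusted p = 0.105). For Icam1, the change was 0.47 in Ly6C and 1.95 in Ly6G, a difference of -1.48 (95% interval -2.45 to -0.51, limma adjusted p = 0.0346). It was lost in 8 of 12 fits without 1 library, at changes of -1.57 to -1.32 with adjusted p of 0.0501 to 0.0788, namely without any Ly6C tumor library, any Ly6G tumor library, Ly6G spleen replicate 1 or Ly6G spleen replicate 2. It passed without Ly6C spleen replicate 2, in which Icam1 was 16.0 FPKM, at -1.06 (adjusted p = 0.0280).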

How the results depend on the processing

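Itgb1 rose and passed in tumor in both labels under every alternative run. The replicate block changed 2 calls of the limma fits, Itgb2 between labels in tumor (adjusted p = 0.0670) and the Icam1 interaction (adjusted p = 0.0535). That left 1 member with a lower interaction, beside 14.8% of all genes. The exact permutation test within replicate numbers left the ratios at 4.84, 2.04 and 1.05 at p = 0.03125, the smallest it can give (adjusted p = 0.104), so no ratio could pass. Rescaled to pan-leukocyte genes, 4 members were higher and 0 lower in each label between tissues, beside the shares of all genes given above. Between labels 0 were lower in spleen, beside 0.727% of all genes, and 1 was higher and 1 lower in tumor, beside 74.7% and 0.948%. In the interaction 0 were lower, beside 0.367%. Signs turned there in Ly6C for Itgb2 (0.29), Cd44 (2.75), Itgax (1.29) and Selplg (0.51), in Ly6G for Cd44 (1.86), Itgam (0.75), Itgax (1.02), Itgal (0.50) and Selplg (0.10), in tumor between labels for Itgb2 (0.41), Cd44 (0.62), Itga4 (0.13), Itgam (0.0704) and Icam1 (0.14), and in the interaction for Itgb2 (0.47), Cd44 (0.89), Itgb1 (0.91), Itgax (0.27) and Selplg (0.41). The construction of that scaling, which holds leukocyte genes level, moves all genes. The equal-sum scaling gave 2 higher and 0 lower members in spleen, beside 39.5% and 4.17% of all genes, and 4 lower in the interaction, beside 33.2%, and turned Itgb2 (0.26) and Cd44 (0.0319) in spleen. Median-of-ratios factors gave 3 lower in spleen, beside 17.4% of all genes, and quantile normalization 2, beside 12.6%, with Itgb2 there at 0.28. The Itgax interaction turned with pseudocount 5 (0.11), median-of-ratios factors (0.15) and quantile normalization (0.11). Without a filter, 0 members were lower in spleen, 1 in tumor and 1 in the interaction. These counts stand beside 4.2%, 3.29% and 5.78% of the 30674 genes then tested. Array weights gave 2 higher in Ly6C tumor, beside 49.1% of all genes, and 2 higher and 2 lower between labels in spleen, beside 27.9% and 12.3%. Without both libraries of the highest mitochondrial share, Ly6C tumor replicate 3 and Ly6G tumor replicate 3, 0 members were lower between labels in tumor, beside 1.84% of all genes. In the interaction 1 was lower, beside 8.28%. The ratios without these libraries were 4.996 and 2.15 (exact permutation test, adjusted p = 0.05) and 1.03 (adjusted p = 0.0556), each at its smallest possible p, and Itgam over Itgb2 turned to -0.00381. With pseudocount 1, Itga4 over Itgal turned to 0.76. Summing Itgam and Gm49368, added after the data were seen, brought Itgam over Itgb2 to 0.59 (exact permutation test, adjusted p = 0.0375), an average of unlike labels. Over fits without 1 library, the higher count in Ly6C tumor was 1 to 2, beside 43.4% to 47.6% of all genes. Spleen counts were 0 to 1 higher and 0 to 1 lower, beside 17.3% to 23.2% and 6.23% to 8.5%. Tumor counts were 1 to 5 lower, beside 4.64% to 10.1%, and interaction counts 1 to 2 lower, beside 11.7% to 15.4%. The Itgax interaction ran from -0.51 to 0.16, Itgb2 in spleen from -0.17 to 0.0272, Itgam over Itgb2 from -0.27 to 0.67, Itgax over Itgam from 0.86 to 2.19 and Itgb1 over Itgb2 between labels from 0.59 to 0.93. Except where a construction is named, the cause was not tested. With all genes, the split of calls also moved. In Ly6G tumor against spleen, 7010 genes were higher and 3357 lower as deposited, 8152 and 2557 on the equal sum and 5260 and 5030 with median-of-ratios factors. Between labels in spleen, 3002 were higher and 1169 lower, against 1773 and 2365 with median-of-ratios factors.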
